A study of Mus musculus with 18 samples.

Results

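The Frizzled family is the set of cell-surface receptors for Wnt proteins, and the members described here were chosen by name, as every gene called Fzd1 to Fzd10 among 20295 genes of the count table. All 10 genes were present in the table, 9 of them had reads and passed the filter on low counts, and 12156 genes passed it in all. The family was singled out because Fzd5 and Fzd9 answered isoproterenol in opposite directions, and each of them did so the other way round once lipolysis was inhibited. Those ISO values therefore chose the family and are given as a description without a test.

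Wnt proteins are secreted lipid-modified ligands that bind Frizzled receptors together with co-receptors such as Lrp5 and Lrp6. Binding can stabilise β-catenin, which switches on target genes with TCF/LEF factors, or can signal through Dishevelled to the cytoskeleton, as in planar polarity. In fat cells, β-catenin-dependent Wnt signalling is known to hold back adipogenesis. By sequence the family falls into the subgroups Fzd1, Fzd2 and Fzd7, then Fzd5 and Fzd8, then Fzd3 and Fzd6, and then Fzd4, Fzd9 and Fzd10.

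The cells were brown adipocytes of the mouse line BAT-LgT, which derives from preadipocytes (genotype WT) made immortal by SV40 large T antigen, and they were used as differentiated cells on day 7. Cells received inhibitors of the lipases ATGL and HSL for 1 h or none, followed for 3 h by Vehicle (DMSO), by 100 nM isoproterenol (ISO, an agonist of β-adrenergic receptors), or by SR-3420, a ligand of ABHD5 that starts lipolysis without the receptor. The labels give 10 µM for SR-3420, and the text of the study gives another dose. The 6 groups had 3 replicates each. Groups without inhibitors are called Vehicle, ISO and SR-3420, and the prefix Lipase Inh. marks those that had them, as in Lipase Inh. + ISO. All samples come from the same immortalised line, and the methods speak of independent experiments. RNA was read from whole cultures, so fewer cells with a transcript and less transcript per cell cannot be told apart.

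Of the libraries, 17 held 10310447 to 21205032 counts on genes. Lipase Inh. + SR-3420 replicate 2 held 4263755, and Lars2 took 18.3% of its counts against 0.0397% to 0.121% elsewhere. All 8 adipocyte markers lay above 1 CPM (counts scaled to library size with TMM factors, in the usual CPM unit) in every library, and 5 or 6 of 8 brown adipocyte markers did so in each group. The brown markers Zic1, Dio2 and Cox7a1 reached no more than 2, 6 and 36 counts in any library. Ucp1 reached 10912 counts in Lipase Inh. + ISO, but at most 41 in Vehicle and 40 in Lipase Inh. + Vehicle. Endothelial markers reached at most 9 counts. Of the macrophage markers, Cd68 reached 70 counts, Csf1r 14, Emr1 1 and Ptprc 0. Markers of preadipocytes or fibroblasts summed to 190 to 327 CPM, and adipocyte markers to 21306 to 37342 CPM.

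The stretches directly in front of Fzd5 and Fzd9 are shown because these genes moved in opposite directions. Both are on the minus strand, and both sequences come from RefSeq on GRCm38.p6, at chr1:64737751-64738000 for Fzd5 and chr5:135251231-135251297 for Fzd9. Each is identical to a single place in mm9, the build of the count table, at chr1:64784325-64784574 and chr5:135727101-135727167. Only bases outside every annotated transcript of the gene are printed, 250 for Fzd5 and 67 for Fzd9, where the GENCODE transcript begins 183 bases before the RefSeq start. Capitals mark GC boxes, the letters GGGCGG or their reverse complement CCGCCC.

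Fzd5 upstream: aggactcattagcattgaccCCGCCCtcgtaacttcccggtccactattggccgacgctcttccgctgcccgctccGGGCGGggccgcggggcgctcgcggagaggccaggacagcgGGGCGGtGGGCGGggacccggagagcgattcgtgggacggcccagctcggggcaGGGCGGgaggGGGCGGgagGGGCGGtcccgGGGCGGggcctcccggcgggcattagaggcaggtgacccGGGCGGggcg

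Fzd9 upstream: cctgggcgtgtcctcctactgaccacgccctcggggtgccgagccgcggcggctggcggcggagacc

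Within 250 bases before the RefSeq start, Fzd5 held 9 GC boxes and Fzd9 held 1, which lay outside the 67 bases printed. A GC box was present in 32.7% of 32851 mouse promoters of this length, and 0.0731% held 9 or more, a count looked up after the Fzd5 sequence had been seen. Fzd5 also held the CAAT box CCAAT on 1 strand, which was found in 33.8% of promoters, and Fzd9 did not. Promoters were listed for 6 members. None of Fzd1, Fzd4, Fzd5, Fzd7, Fzd9 and Fzd10 held the cAMP response element TGACGTCA, the shorter TGACG or the AP-1 letters TGANTCA on either strand, against 1.55%, 17.8% and 6.75% of promoters. This says only that those letters were not in the window.

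In cells under Vehicle, Fzd4 and Fzd1 were the most abundant Frizzled transcripts per length, and Fzd5 came after them and Fzd7. Levels per length were CPM divided by the counted length in kb. Fzd4, a receptor for Wnts and for Norrin, stood at 30.1 ± 4.22 CPM per kb (SD, n = 3), and Fzd1 at 24.7 ± 0.747. Fzd7 followed at 13.2 ± 1.24, Fzd5 at 5.78 ± 0.631, Fzd2 at 4.34 ± 0.251 and Fzd8 at 3.30 ± 0.288 CPM per kb. These 6 receptors did not overlap with their neighbours in the order.

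Fzd9 was at 1.34 ± 0.629 CPM per kb under Vehicle, and Fzd6 and Fzd3, both known for planar polarity, were at 0.522 ± 0.239 and 0.333 ± 0.118 and overlapped. Fzd10 had 0 counts in all 18 libraries, a count that allows up to 3 counts per library, or 0.152 to 0.799 CPM from the deepest library to the shallowest, for counting error only.

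**Figure D1:**
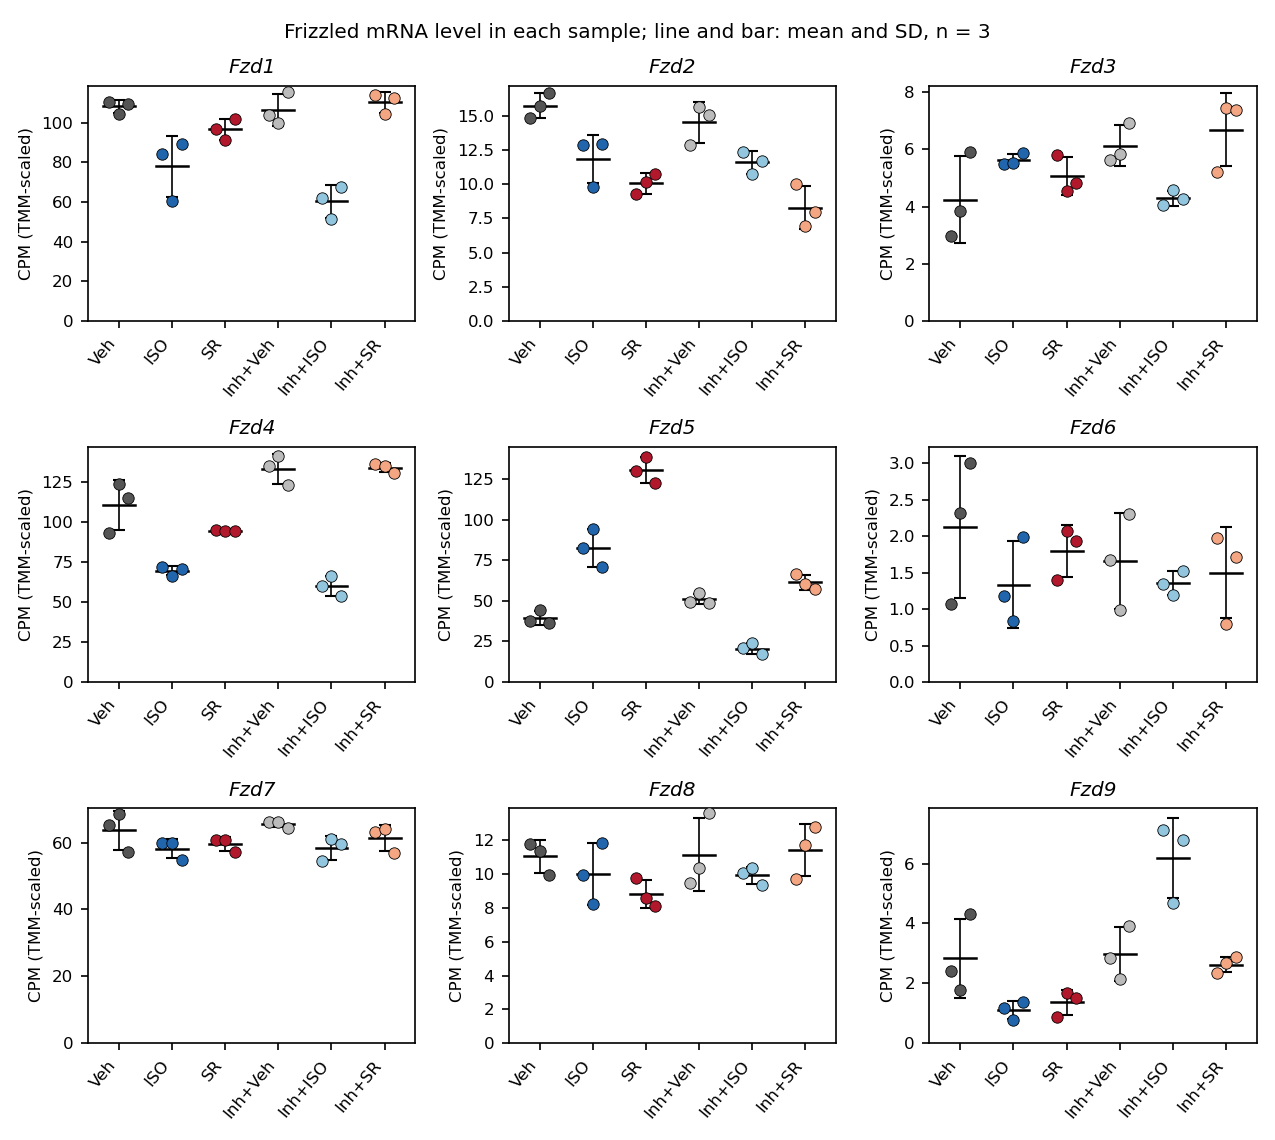
Level of each measured Frizzled gene (TMM-scaled CPM, y axis) in every sample of the 6 groups (x axis; Veh, Vehicle; SR, SR-3420; Inh, lipase inhibitors); points are replicates, lines are means and bars are SD with n = 3. Fzd5 was highest in SR-3420, at 122.8 to 138.6 CPM, and lowest in Lipase Inh. + ISO, at 16.98 to 23.9 CPM, whereas Fzd9 was highest in Lipase Inh. + ISO, at 4.67 to 7.11 CPM.

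Fzd5 (NM_001042659, mm9 chr1:64777132-64784324, minus strand) was the member with the widest swing between groups. Its level was 37.7, 44.2 and 36.1 CPM in the Vehicle replicates 1 to 3, and 82.4, 94.5 and 70.9 CPM in the ISO replicates. With lipase inhibitors, the Vehicle samples had 49.6, 54.8 and 48.8 CPM and the ISO samples 20.8, 23.9 and 16.98 CPM. All ISO samples were therefore above all Vehicle samples without inhibitors, and all were below with inhibitors. The log2 fold change for ISO was 1.07 ± 0.11 (SE), a 2.10-fold higher level, without inhibitors, and -1.33 ± 0.12, a 2.51-fold lower level, with them. The difference of these values was -2.40 ± 0.16.

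Under SR-3420, Fzd5 had 129.8, 138.6 and 122.8 CPM, above every sample of every other group. With inhibitors, SR-3420 gave 66.6, 60.2 and 57.3 CPM, which also did not overlap with Lipase Inh. + Vehicle. SR-3420 was not part of the choice of the family, and was tested with edgeR's quasi-likelihood test and Benjamini-Hochberg adjustment over 12156 genes. The Vehicle groups it was compared with are, however, those of the ISO values. Fzd5 rose 3.31-fold under SR-3420 (log2 1.73 ± 0.11 SE, adjusted p = 4.77e-11). With inhibitors the log2 fold change of Fzd5 was 0.27 ± 0.11 and did not pass the test (adjusted p = 0.236). It passed in a fit with a term for the replicate number (log2 0.29, adjusted p = 0.0223), which the labels do not say pairs samples. The change was smaller with inhibitors than without, by 1.46 ± 0.16 on the log2 scale (interaction -1.46, adjusted p = 7.26e-07).

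Of the 8 markers of preadipocytes or fibroblasts, 3 were higher and 0 lower under SR-3420, where 26.0% of all genes were higher and 25.4% lower. Their summed level was 210 to 312 CPM in Vehicle and 295 to 327 CPM in SR-3420, none of the 8 was absent, and their part in the Fzd5 result was not tested. Of the 8 adipocyte markers, 4 rose and 4 fell.

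Fzd9 (NM_010246, mm9 chr5:135724808-135726917, minus strand), a receptor with a small intronless gene, was scarce and mirrored Fzd5 under ISO. It had 2.401, 1.78 and 4.32 CPM in Vehicle and 1.18, 0.756 and 1.37 CPM in ISO. With inhibitors it had 2.84, 2.14 and 3.93 CPM in Vehicle and 7.11, 4.67 and 6.79 CPM in ISO. The groups did not overlap in either setting, with ISO lower without inhibitors and higher with them. The log2 fold changes were -1.34 ± 0.36 and 1.04 ± 0.27 (SE), and their difference was 2.38 ± 0.45.

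These Fzd9 values rest on 9 to 134 counts per library. Without Vehicle replicate 3, the highest of its group, the ISO change of Fzd9 was -0.95 on the log2 scale. In the SR-3420 samples Fzd9 had 0.882, 1.67 and 1.52 CPM, each below every Vehicle sample, and it fell by 1.02 ± 0.33 (log2, adjusted p = 0.0140). This call did not hold when Vehicle replicate 3 was left out (log2 -0.62, adjusted p = 0.131) or when SR-3420 replicate 1 was left out (log2 -0.81, adjusted p = 0.0717). With inhibitors, SR-3420 gave 2.34, 2.66 and 2.86 CPM, within the range of Lipase Inh. + Vehicle (log2 -0.20 ± 0.32, adjusted p = 0.819). The interaction of 0.82 ± 0.46 for Fzd9 did not pass the test (adjusted p = 0.198).

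Fzd4 (NM_008055, mm9 chr7:96552876-96558620) and Fzd1 (NM_021457, mm9 chr5:4753839-4758216) were lower under ISO in both settings. Fzd4 had 93.5, 123.6 and 115.3 CPM in Vehicle and 71.9, 66.6 and 70.8 CPM in ISO. With inhibitors Fzd4 had 134.9, 141.7 and 123.3 CPM in Vehicle and 60.1, 66.3 and 53.9 CPM in ISO. The ISO samples lay below the Vehicle samples each time, with log2 fold changes of -0.67 ± 0.09 and -1.15 ± 0.09.

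Fzd1 had 110.7, 104.6 and 109.7 CPM in Vehicle and 84.3, 60.6 and 89.2 CPM in ISO. With inhibitors Fzd1 had 103.8, 99.9 and 115.4 CPM in Vehicle and 61.9, 51.5 and 67.8 CPM in ISO. Again no ISO sample reached the Vehicle range, and the log2 fold changes were -0.47 ± 0.11 and -0.81 ± 0.11. Under SR-3420, Fzd1 was at 91.3 to 101.9 CPM, below every Vehicle sample, but did not pass the test (log2 -0.16 ± 0.11, adjusted p = 0.220). With libraries scaled by total counts alone it did (log2 -0.32, adjusted p = 0.0289).

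Under SR-3420, Fzd4 was at 95.1, 94.4 and 94.2 CPM and overlapped with Vehicle, in which replicate 1 was lower. Its fall of 0.23 ± 0.09 (log2, adjusted p = 0.0344) was lost in 5 of 6 fits that left out a library, with log2 values down to -0.14 without Vehicle replicate 2 (adjusted p = 0.218). With inhibitors SR-3420 gave 136.6, 135.1 and 130.8 CPM for Fzd4, within the Lipase Inh. + Vehicle range (log2 0.01 ± 0.09, adjusted p = 0.978). The log2 interaction for Fzd4 was 0.24 ± 0.12 (adjusted p = 0.165), and without Vehicle replicate 1 it was 0.35 (adjusted p = 0.0211).

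Fzd2 (NM_020510, mm9 chr11:102465745-102469372) was the receptor that SR-3420 lowered in both settings. It had 14.9, 15.7 and 16.7 CPM in Vehicle and 9.26, 10.2 and 10.7 CPM in SR-3420. With inhibitors Fzd2 had 12.8, 15.7 and 15.02 CPM in Vehicle and 10.0, 6.93 and 7.95 CPM in SR-3420. No SR-3420 sample of Fzd2 reached its Vehicle range. Fzd2 fell by 0.64 ± 0.13 (log2, adjusted p = 0.000352) without inhibitors and by 0.77 ± 0.14 (adjusted p = 0.00205) with them. The interaction for Fzd2 was -0.13 ± 0.19 (adjusted p = 0.666). ISO gave 9.82 to 12.9 CPM without and 10.7 to 12.3 CPM with inhibitors, log2 fold changes of -0.41 ± 0.13 and -0.32 ± 0.13.

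**Figure D2:**
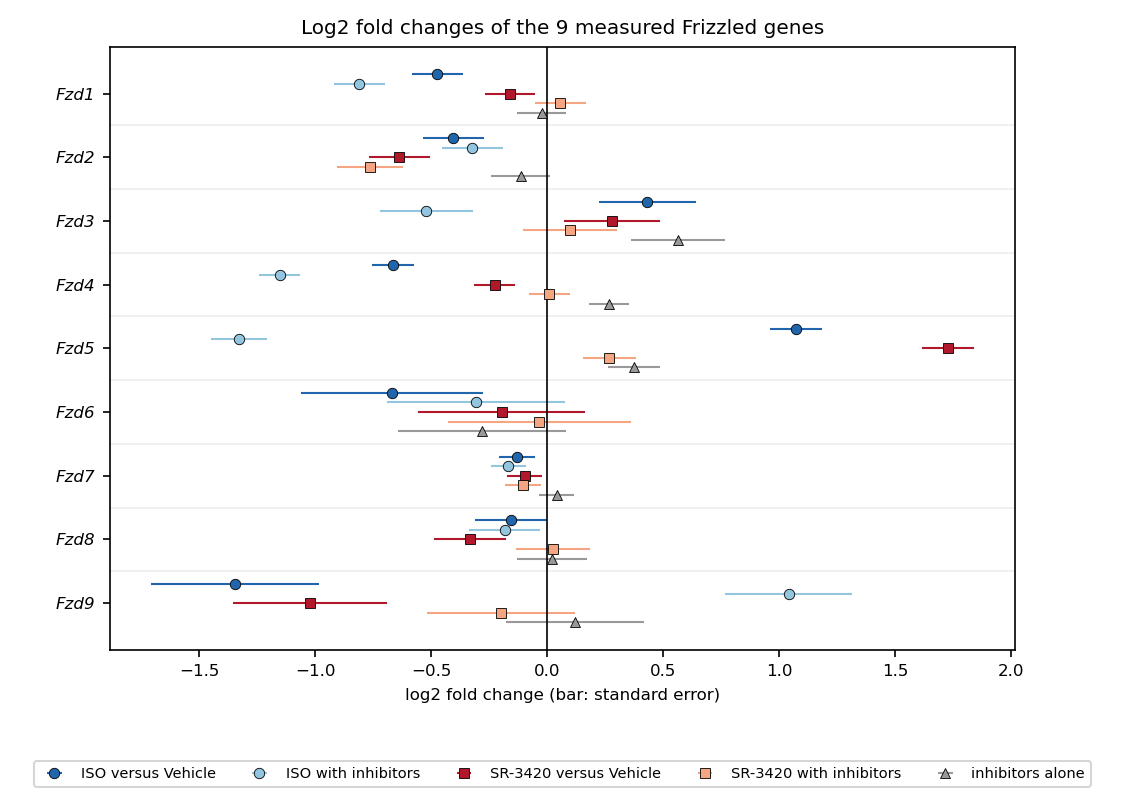
Log2 fold change (x axis) with its standard error for the 9 measured Frizzled genes (y axis); each colour and symbol is a comparison with the matching Vehicle group, and inhibitors alone is Lipase Inh. + Vehicle against Vehicle. Fzd5 and Fzd9 lie on opposite sides of 0 for ISO without inhibitors (1.07 and -1.34) and change sides with inhibitors (-1.33 and 1.04).

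Fzd8, by sequence the closest relative of Fzd5, lay between 8.13 and 13.6 CPM over the 18 samples, and Fzd7, of the Fzd1 subgroup, between 54.4 and 68.6 CPM. For Fzd8 the log2 fold change was -0.16 ± 0.16 under ISO and -0.33 ± 0.15 under SR-3420 (adjusted p = 0.0787). For Fzd7 these values were -0.13 ± 0.08 and -0.10 ± 0.08 (adjusted p = 0.297).

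Fzd3 ranged from 2.97 to 7.46 CPM, with log2 fold changes for ISO of 0.43 ± 0.21 without and -0.52 ± 0.20 with inhibitors. Under SR-3420 the log2 fold change of Fzd3 was 0.28 ± 0.21 (adjusted p = 0.275), and it ranged from 0.06 to 0.57 when a library was left out, the highest without Vehicle replicate 3 (adjusted p = 0.0240). Fzd6 ranged from 0.799 to 3.00 CPM, rested on 3 to 40 counts, and had -0.67 ± 0.39 under ISO and -0.20 ± 0.36 under SR-3420 (adjusted p = 0.676). Its standard errors were the largest of the family for ISO and for SR-3420 without inhibitors.

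Counted over the family, 4 of the 9 measured receptors passed the test under SR-3420 without inhibitors, with Fzd5 higher and Fzd2, Fzd4 and Fzd9 lower. Over all genes tested, 26.0% were higher and 25.4% lower at an adjusted p of at most 0.05, so that the share of receptors called was near that of all genes. Without overlap, 1 receptor lay above and 4 below Vehicle, where 28.5% and 27.7% of all genes did. The median log2 fold change of the receptors was -0.20, against -0.02 over all genes. TMM scaling assumes that most genes do not move on balance. With libraries scaled by total counts alone, the median of all genes shifted by -0.16 under SR-3420 and by -0.31 under ISO without inhibitors. Under SR-3420, 7 receptors then passed the test, 1 higher and 6 lower. Of all genes called under SR-3420, 30.8% were then higher against 50.6% with TMM, so the calls of all genes tilted lower too. No direction named above for ISO or SR-3420 without inhibitors turned with that scaling.

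With inhibitors, SR-3420 moved 1 receptor past the test, Fzd2, where 2.99% of all genes were higher and 1.36% lower. In that comparison 1 receptor lay above and 2 lay below without overlap, where 11.8% and 8.19% of all genes did. The small positive log2 values of Fzd1, Fzd4 and Fzd8 in this comparison (0.06, 0.01 and 0.02) were below 0 with total counts. Inhibitors alone gave 0 receptors past edgeR's test and 0 by DESeq2, against 0.913% of all genes, and 3 receptors had an unadjusted p of at most 0.05. Those included Fzd5, which was higher in every Lipase Inh. + Vehicle sample than in every Vehicle sample (log2 0.37 ± 0.11, adjusted p = 0.153). A fit with a term for the replicate number called Fzd5 in this comparison (log2 0.38, adjusted p = 0.00552). Both groups compared here are the baselines of the ISO values that chose the family. The p-values of Fzd5 are therefore not independent of that choice. Fzd5 was the 1 receptor without overlap, and none lay lower, where 8.03% of all genes lay higher and 7.40% lower. Without Vehicle replicate 3, Fzd3 was called in this comparison (log2 0.86, adjusted p = 0.0333). For the difference between SR-3420 with and without inhibitors, Fzd5 was the 1 receptor called of 9, where 12.5% of all genes had a positive and 14.8% a negative interaction.

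Under ISO without inhibitors, 1 receptor lay above and 4 lay below Vehicle without overlap, where 28.2% and 27.4% of all genes did so. With inhibitors, 1 lay above and 6 below, where 33.4% and 31.8% of all genes did. These comparisons chose the family, and nothing is read from their counts.

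**Figure D3:**
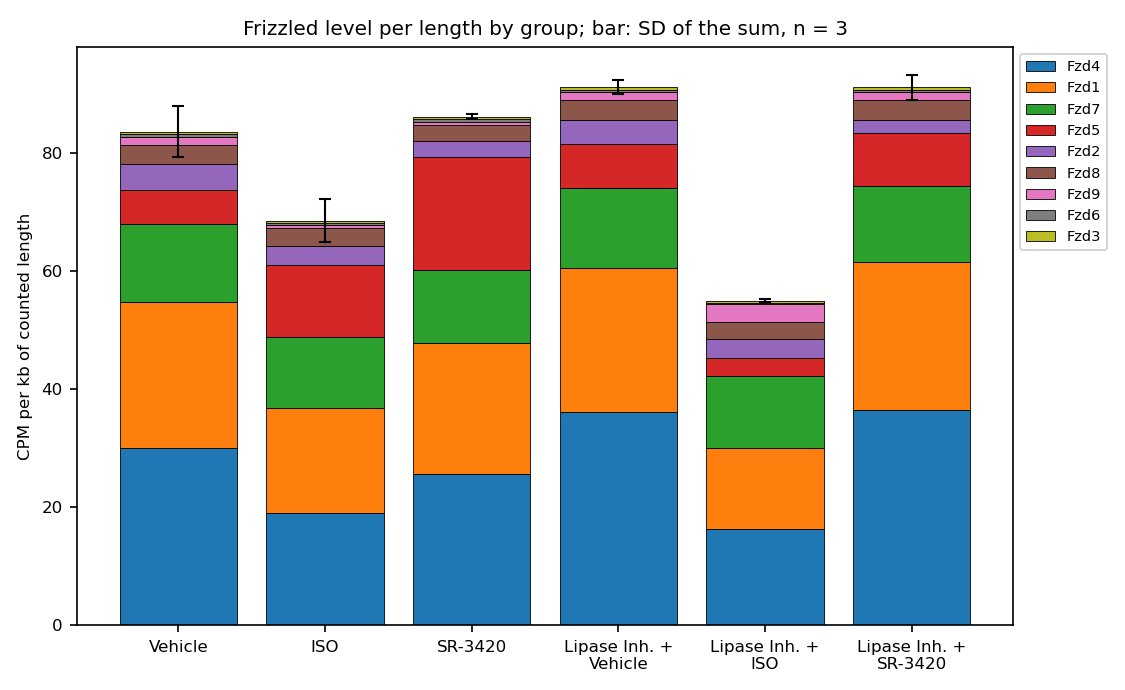
Mean level per length (CPM per kb, y axis) of the 9 measured Frizzled genes, stacked, in each of the 6 groups (x axis); bars on top are the SD of the sum over 3 replicates. The sum was 83.7 in Vehicle and 55.02 in Lipase Inh. + ISO, and the Fzd5 share was 6.90% in Vehicle and 22.2% in SR-3420.

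The share of Fzd5 in the family differed by group. Summed over the family, the level was 83.7 ± 4.33 CPM per kb in Vehicle, 68.5 ± 3.62 in ISO and 86.2 ± 0.402 in SR-3420 (SD, n = 3). With inhibitors the sums were 91.2 ± 1.19 in Vehicle, 55.02 ± 0.183 in ISO and 91.2 ± 2.12 in SR-3420. Fzd5 made up 6.90% ± 0.570 of the Vehicle sum, 17.8% ± 3.42 of the ISO sum and 22.2% ± 1.26 of the SR-3420 sum. With inhibitors its share was 8.22% ± 0.463, 5.49% ± 0.930 and 9.87% ± 0.543 in the same order.

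In SR-3420, Fzd5 stood at 19.2 CPM per kb, behind only Fzd4 at 25.7 and Fzd1 at 22.1, and neighbours did not overlap. In ISO, Fzd5 at 12.1 CPM per kb could not be ranked against Fzd7 at 12.1 or Fzd1 at 17.8, whose samples overlapped with it or with each other in turn. In Lipase Inh. + ISO the levels of Fzd2, Fzd5, Fzd8 and Fzd9 lay between 2.93 and 3.19 CPM per kb, and each overlapped with the next.

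Across the 18 samples, the log2 levels of Fzd5 and Fzd9 ran against each other (Pearson r = -0.870), and those of Fzd1 and Fzd4 ran together (r = 0.837). These samples share 6 treatments and are not independent, so the values describe the pattern only. Fzd5 and Fzd9 were also singled out for opposite ISO responses in both settings, so their negative r follows in part from that choice. Of 10971 genes, Arhgef2 was most like Fzd5 over the 18 samples (r = 0.983), followed by Col6a2, Sqstm1, Hspg2 and Samd4 (r from 0.975 to 0.978). Arhgef2, which encodes a microtubule-bound activator of RhoA, had a mean of 122.7 CPM in Vehicle, 254.1 in SR-3420 and 69.9 in Lipase Inh. + ISO. Most like Fzd9 were Tmem127 (r = 0.929), Id2, Dip2a, Pwwp2b and Scara5 (r from 0.917 to 0.923). Id2, an inhibitor of bHLH transcription factors, had 132.4 CPM in Vehicle, 74.2 in ISO and 244.8 in Lipase Inh. + ISO.

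Of 96 other genes of the Wnt pathway, 60 passed the filter, among them 4 of 20 Wnt ligands, and 5 of the 96 had no read in any library. Under ISO without inhibitors 12 rose and 14 fell, where 26.8% of all genes were higher and 25.0% lower. The 14 include Smo, a relative of Frizzled that belongs to Hedgehog rather than Wnt signalling (log2 -0.51 ± 0.07, edgeR adjusted p = 1.50e-06). Smo is counted in the list throughout. With inhibitors, ISO raised 10 and lowered 27, where 29.4% of all genes were higher and 28.3% lower. SR-3420 raised 15 and lowered 11 without inhibitors, where 26.0% of all genes were higher and 25.4% lower. With inhibitors SR-3420 raised 3 and lowered 1, where 2.99% and 1.36% of all genes did so. Inhibitors alone moved 1 gene, Daam1, a formin of planar polarity signalling (log2 0.41 ± 0.09, adjusted p = 0.0190), and this call was lost in 5 of 6 fits without a library, all but that without Vehicle replicate 2, with adjusted p up to 0.181 without Vehicle replicate 1. As shares of the 60 genes, 43.3% were called under ISO and 61.7% under ISO with inhibitors, against 51.8% and 57.7% of all genes tested. The interaction with inhibitors was called for 18 genes for ISO, 5 with a positive and 13 with a negative value, where 14.9% and 16.6% of all genes were called. For SR-3420 it was called for 3 genes with a positive and 10 with a negative value, 21.7% of the 60, where 12.5% and 14.8% of all genes were called.

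Of the 4 Wnt ligands measured, Wnt2b and Wnt9a fell under ISO. Wnt2b had 4.93, 5.64 and 4.76 CPM in Vehicle, 2.01, 2.94 and 3.36 in ISO and 2.65, 2.15 and 1.99 in SR-3420. Both agents put Wnt2b below the Vehicle range, by 0.91 ± 0.23 (log2, adjusted p = 0.00213) for ISO, and the change for SR-3420 was -1.18 ± 0.23 (adjusted p = 0.000181). With inhibitors Wnt2b still fell under ISO, by 0.62 ± 0.22 (adjusted p = 0.0217), a call lost without Lipase Inh. + ISO replicate 3 (log2 -0.38, adjusted p = 0.175) or Lipase Inh. + Vehicle replicate 1 (adjusted p = 0.0746). Its response to SR-3420 differed between the settings (interaction 1.13 ± 0.32, adjusted p = 0.0111), except without Lipase Inh. + SR-3420 replicate 3 (adjusted p = 0.0643). Wnt9a was under 2 CPM in every sample and at 0 to 0.278 CPM in ISO, so its log2 fold change of -2.81 ± 0.60 (adjusted p = 0.000468) rests on few reads. Under SR-3420 the value for Wnt9a was -1.67 ± 0.48 (adjusted p = 0.00628), or -1.24 without Vehicle replicate 1 (adjusted p = 0.0727). Under ISO with inhibitors it was -1.10 ± 0.43 (adjusted p = 0.0343), a call lost in 4 of 6 fits without a library, with adjusted p up to 0.122 without Lipase Inh. + ISO replicate 1. The other 3 losses came without Lipase Inh. + ISO replicate 2 and without Lipase Inh. + Vehicle replicate 1 or 3.

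Tspan12, which helps Fzd4 respond to Norrin and is named here after its values had been seen, rose under ISO without inhibitors (log2 0.67 ± 0.10, adjusted p = 7.07e-06). With inhibitors, where Fzd4 was also lower under ISO, Tspan12 had 113.4, 115.2 and 108.6 CPM in ISO. This overlapped with 115.0, 135.7 and 104.3 CPM in Lipase Inh. + Vehicle. Under SR-3420 without inhibitors it had 171.0, 170.7 and 155.9 CPM against 121.1, 135.9 and 102.4 in Vehicle. The agonist Rspo2, an R-spondin that keeps Frizzled at the surface, fell under ISO with inhibitors (log2 -0.84 ± 0.23, adjusted p = 0.00358).

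The calls picked by rule for 3 further partners of Frizzled depended on single libraries. Lrp6, the co-receptor, rose under SR-3420 with inhibitors (log2 0.37 ± 0.10, adjusted p = 0.0296), but did not pass without replicate 1 or 2 of Lipase Inh. + Vehicle or without replicate 2 or 3 of Lipase Inh. + SR-3420, with log2 0.30 at the lowest (adjusted p = 0.157). In Lipase Inh. + ISO, Lrp6 had 615.9, 569.1 and 658.6 CPM against 420.6, 373.2 and 433.5 in Lipase Inh. + Vehicle, without overlap. The R-spondin receptor Lgr6 fell under ISO with inhibitors (log2 -0.47 ± 0.19, adjusted p = 0.0412), but did not pass without replicate 1 or 2 of Lipase Inh. + Vehicle or without replicate 2 or 3 of Lipase Inh. + ISO, the last giving log2 -0.34 (adjusted p = 0.199). Its interaction for SR-3420 of -0.76 ± 0.27 (adjusted p = 0.0410) was lost in 8 of 12 such fits, with -0.57 without Lipase Inh. + SR-3420 replicate 3 (adjusted p = 0.148). Lgr4, also an R-spondin receptor, fell by 0.19 ± 0.07 under SR-3420 (log2, adjusted p = 0.0300), and did not pass without replicate 2 or 3 of Vehicle or replicate 1 or 2 of SR-3420, where log2 went to -0.14 (adjusted p = 0.134).

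Znrf3, a ubiquitin ligase that removes Frizzled from the membrane, had 33.9, 37.6 and 35.4 CPM in Vehicle, 44.8, 40.5 and 43.5 in ISO and 46.4, 49.7 and 47.5 in SR-3420. With inhibitors it had 30.6, 27.2 and 29.0 CPM in ISO against 37.3, 36.9 and 35.4 in Vehicle. It rose under ISO (log2 0.27 ± 0.08, adjusted p = 0.00755), although with total counts the value was -0.04, and it fell under ISO with inhibitors (log2 -0.34 ± 0.08, adjusted p = 0.00131). The interaction for Znrf3 was -0.61 ± 0.11 (adjusted p = 0.000311), and it rose under SR-3420 (log2 0.43 ± 0.08, adjusted p = 0.000121).

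Apcdd1, a membrane inhibitor of Wnt signalling, was lowered by both agents. It had 156.2, 151.0 and 177.6 CPM in Vehicle, 83.5, 71.7 and 82.0 in ISO and 68.996, 71.5 and 68.5 in SR-3420. The log2 fold changes of Apcdd1 were -1.03 ± 0.09 (adjusted p = 3.08e-09) and -1.21 ± 0.09 (adjusted p = 3.71e-10), and inhibitors reduced the second (interaction 0.96 ± 0.12, adjusted p = 7.30e-06). The secreted inhibitor Dkk2 had a negative interaction for SR-3420 (-1.42 ± 0.44, adjusted p = 0.0199), which did not pass without SR-3420 replicate 3 (adjusted p = 0.0625) or Lipase Inh. + SR-3420 replicate 1 (adjusted p = 0.0529).

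**Figure D4:**
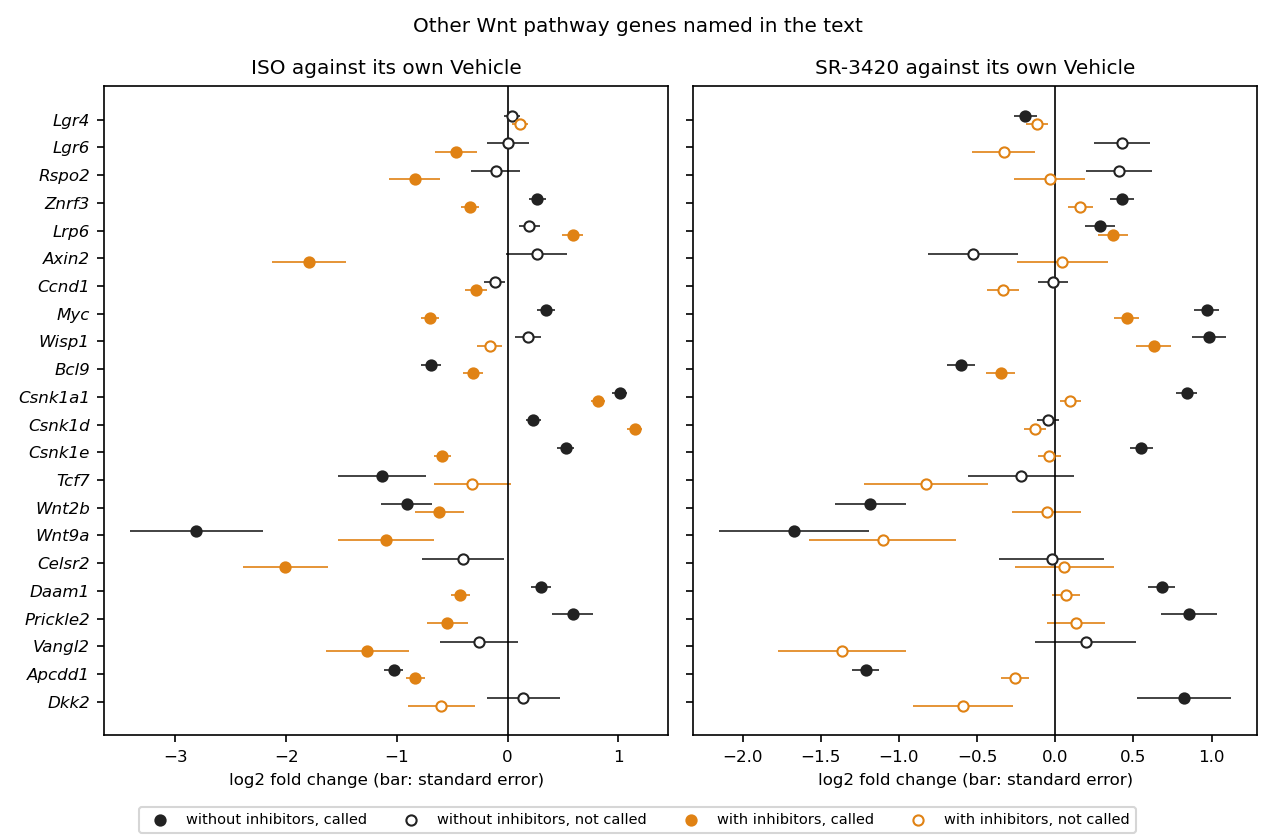
Log2 fold change (x axis) with its standard error for the other Wnt pathway genes picked by rule (y axis), for ISO (left) and SR-3420 (right), each against the Vehicle group of the same setting; black is without and orange with lipase inhibitors, and filled points passed the test at an adjusted p of at most 0.05. Of the 4 comparisons Axin2 was called in 1, ISO with inhibitors, at -1.79, and Myc was called in all 4.

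Among the kinases and factors inside the cell, Csnk1a1, which primes β-catenin for breakdown, rose under ISO (log2 1.01 ± 0.07, adjusted p = 5.12e-11). It also had 323.7, 316.4 and 312.9 CPM in SR-3420 against 170.6, 190.6 and 170.3 in Vehicle. With inhibitors Csnk1a1 had 330.8, 356.7 and 297.5 CPM in ISO against 183.4, 194.4 and 181.2 in Vehicle. Tcf7, a partner of β-catenin on DNA, fell under ISO without inhibitors (log2 -1.14 ± 0.40, adjusted p = 0.0202). It was at 0.525 to 0.763 CPM in ISO and 1.31 to 1.68 in Vehicle, so the change rests on few reads. The Tcf7 call was lost without Vehicle replicate 3 (adjusted p = 0.0535) or ISO replicate 3 (adjusted p = 0.0598). Csnk1d, a kinase of Dishevelled, rose under ISO with inhibitors (log2 1.15 ± 0.07, adjusted p = 5.42e-12). Its relative Csnk1e had a negative interaction (-1.11 ± 0.10, adjusted p = 3.59e-08). Bcl9, a co-activator of β-catenin, fell under ISO without inhibitors (log2 -0.69 ± 0.09, adjusted p = 1.58e-06). It had 31.9, 32.7 and 30.3 CPM in SR-3420 against 51.3, 45.9 and 46.8 in Vehicle. With inhibitors Bcl9 fell under SR-3420 (log2 -0.35 ± 0.09, adjusted p = 0.0298). This last call did not pass without replicate 1 or 2 of Lipase Inh. + Vehicle or replicate 1 or 3 of Lipase Inh. + SR-3420, with log2 -0.27 at the weakest (adjusted p = 0.176).

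Of the 9 planar polarity genes measured, 7 were lower and 1 was higher under ISO with inhibitors, where 28.3% of all genes were lower and 29.4% higher. Whether this role differs from the other roles of the list was not tested. The cadherin Celsr2 fell by 2.01 ± 0.38 (log2, adjusted p = 0.000121) and Vangl2 fell by 1.27 ± 0.37 (adjusted p = 0.00614). Both rest on few reads. Celsr2 was at 0.270 to 0.458 CPM in Lipase Inh. + ISO and 1.21 to 2.04 in Lipase Inh. + Vehicle. Vangl2 was at 0.540 to 0.732 and 1.33 to 1.68 CPM in the same order. Prickle2 had an interaction of -1.13 ± 0.26 for ISO (adjusted p = 0.00203), and Celsr2 one of -1.61 ± 0.54 (adjusted p = 0.0279). The Celsr2 interaction was lost in 5 of 12 fits without a library, with -1.21 without ISO replicate 1 (adjusted p = 0.145). For SR-3420 the interaction of Vangl2 was -1.56 ± 0.52 (adjusted p = 0.0306), lost in 7 of 12 such fits, with -1.22 without SR-3420 replicate 2 (adjusted p = 0.0890).

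Axin2, a direct target and feedback inhibitor of β-catenin signalling, had 3.03, 2.24 and 2.38 CPM in Vehicle and 2.29, 4.20 and 2.84 in ISO, which overlapped. In SR-3420 it had 1.69, 1.35 and 2.20 CPM, below every Vehicle sample, but did not pass the test. With inhibitors Axin2 had 2.84, 3.21 and 1.96 CPM in Vehicle and 0.450, 0.732 and 0.963 in ISO, which did not overlap. These Axin2 values rest on few reads. Axin2 fell by 1.79 ± 0.33 under ISO with inhibitors (log2, adjusted p = 8.999e-05), and its interaction was -2.06 ± 0.44 (adjusted p = 0.000931). Ccnd1, cyclin D1, fell in the same comparison by 0.29 ± 0.10 (log2, adjusted p = 0.0166), but not without Lipase Inh. + ISO replicate 1 (adjusted p = 0.0517) or Lipase Inh. + Vehicle replicate 3 (adjusted p = 0.0633).

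Myc, a growth regulator and β-catenin target, had 82.0, 80.4 and 74.2 CPM in Vehicle, 92.8, 109.1 and 98.8 in ISO and 160.4, 149.5 and 153.2 in SR-3420. With inhibitors Myc had 54.8, 60.4 and 47.0 CPM in ISO against 88.2, 83.1 and 90.8 in Vehicle. As with Fzd5, ISO samples were above Vehicle without inhibitors and below with them, with an interaction for Myc of -1.04 ± 0.11 (adjusted p = 3.65e-07). Its rise under ISO without inhibitors (log2 0.34 ± 0.08, adjusted p = 0.00110) was 0.04 with total counts. SR-3420 raised Myc by 0.97 ± 0.08 (log2, adjusted p = 2.19e-09) without and by 0.46 ± 0.08 (adjusted p = 0.00133) with inhibitors, an interaction of -0.51 ± 0.11 (adjusted p = 0.00176). Wisp1, a secreted matrix protein and Wnt target, also rose under SR-3420, by 0.98 ± 0.11 (adjusted p = 2.34e-07) without and 0.63 ± 0.11 (adjusted p = 0.00152) with inhibitors.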

How the data were processed

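RNA was sequenced from 18 cultures, 3 replicates in each of 6 groups. Per the submitters' processing notes, reads were handled with STAR 2.4.2a and HOMER on mm9; the deposited values are raw counts per gene made by the authors, with no normalization. Use of strand, and how reads shared between family members were counted, is not given in the sources used here. Groups came from the sample titles, and every count column matched a sample (0 columns of other samples). The study describes independent experiments, while the labels number replicates without saying what a number shares, so p-values measure the spread between these samples.

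Genes were filtered with filterByExpr (minimum count 10, minimum total 15; 12156 of 20295 genes kept), scaled by TMM and fitted with edgeR 4.0.16 in R 4.3.3, with a mean per group over all 18 samples. The quasi-likelihood test was used with Benjamini-Hochberg adjustment over all genes tested, and a gene was called at an adjusted p of at most 0.05. Directions of ISO for the Frizzled genes were not tested, since they chose the family. The members and lists were chosen with earlier results of these data known. Named Wnt genes were, in each comparison, the 4 called genes with the largest absolute log2 fold change, and every called ligand, R-spondin axis gene or target gene where a role had 3 or fewer. For Fzd5 and Fzd9 the 5 genes with the highest Pearson r of log2 CPM (prior count 2) over 18 samples were named, among genes whose log2 CPM averaged 1 or more. Alternatives were DESeq2 1.42.0, other scaling and filters, a fit on the compared groups alone, a replicate block and leaving out each replicate.

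On simulated counts for SR-3420 against Vehicle (12007 genes tested), edgeR recovered 199 of 200 genes changed 3-fold, and called 11 others. The simulation changed few genes, equally in both directions and with a fixed spread. It therefore does not show how smaller changes or the choice of scaling fare in the real counts. Replicates did not duplicate each other, since the closest pair differed by a chi-square of 3.60 per degree of freedom. Reads carry no molecular identifiers. Mouse promoters were taken from RefSeq and placed in mm9 by exact match.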

Additional observations from a re-analysis of the deposited data

Results flagged for a closer look

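Fzd5 is listed because its response to SR-3420 differed between cells without and with lipase inhibitors, with an interaction of -1.46 on the log2 scale (adjusted p = 7.26e-07, edgeR). It was higher in 3 of 3 SR-3420 samples than in any Vehicle sample in both settings. For the same reason 13 of the 60 other Wnt pathway genes measured are listed for SR-3420, and 18 for ISO. These are 21.7% and 30% of the 60. Over all genes, 12.5% had a positive and 14.8% a negative interaction for SR-3420. For ISO these shares were 14.9% and 16.6%, so neither Wnt count stands above that of all genes.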

How the results depend on the processing

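With libraries scaled by total counts alone, 7 receptors passed the test for SR-3420 against Vehicle instead of 4, and the other Wnt pathway genes called were 0 instead of 1 for inhibitors alone and 2 instead of 4 for SR-3420 with inhibitors. The median receptor value for ISO was then -0.71 without and -0.55 with inhibitors, and Znrf3 under ISO turned to -0.037 (adjusted p = 0.739). With that scaling 19.9% of all calls for ISO were higher against 51.7% with TMM; for ISO with inhibitors 27.8% against 51.0%, for SR-3420 30.8% against 50.6% and for SR-3420 with inhibitors 33.1% against 68.8%. For inhibitors alone it was 42.0% against 53.2%, and for the interactions 58.6% against 47.3% (ISO) and 55.8% against 45.9% (SR-3420). Without a filter on low counts, 2 other Wnt genes were called for inhibitors alone, and 0 in a fit of the compared groups alone, which has fewer samples; the cause of the other changes was not tested. DESeq2 called 207 genes over the whole table for inhibitors alone where edgeR called 111.

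Leaving out each replicate in turn gave 2 to 4 receptors for SR-3420, 0 to 1 for inhibitors alone, 1 for SR-3420 with inhibitors and 1 to 2 for the interaction of SR-3420; the lowest of 2 came without SR-3420 replicate 1. Other Wnt genes called ranged from 0 to 1 for inhibitors alone and from 2 to 4 for SR-3420 with inhibitors. The median receptor value ranged from -0.48 to -0.29 for ISO and from -0.55 to -0.27 for ISO with inhibitors, with -0.55 reached without Lipase Inh. + Vehicle replicate 2.

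The labels do not say that a replicate number pairs samples, and deviations from the group means of samples with the same number had a mean correlation of 0.110 (from -0.114 to 0.280 over 45 pairs, 28 of them above 0.1). As a hint from the data, 12 of 18 samples correlated best with their own number. With a replicate block, 1 receptor was called for inhibitors alone (Fzd5, adjusted p = 0.00552) and 2 for SR-3420 with inhibitors (Fzd5, log2 0.29, adjusted p = 0.0223, and Fzd2), and the other Wnt genes called were 2 and 7. The Vehicle groups of these comparisons are those of the ISO values that chose the family. Over all genes the block gave 269 calls for inhibitors alone against 111 and 852 for SR-3420 with inhibitors against 528. The block together with leaving out the shallow Lipase Inh. + SR-3420 replicate 2, chosen after seeing the data, also gave 2 receptors, with Fzd5 at 0.35 (adjusted p = 0.00892).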
